A study of Mus musculus with 12 samples.

Results

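BCL2 family genes control the survival of lymphocyte precursors, and 10 of them were followed here in mouse pre-B cell lines with and without BCR-ABL1, the constitutively active tyrosine kinase made by the Philadelphia translocation. They were the rows of the count table whose Ensembl identifiers map to Bcl2, Bcl2l1, Mcl1, Bax, Bak1, Bcl2l11, Bbc3, Pmaip1, Bid and Bad, 10 of 51826 listed genes, and all 10 had enough counts to be tested. RNA was sequenced from 12 lines derived from the bone marrow of 2 C57BL/6 mice. Each mouse gave 3 lines carrying an empty retroviral vector (EV) and 3 lines carrying the vector with BCR-ABL1, so that each group held 6 lines. All marrow was first cultured for 7 days with interleukin 7 (IL7), the cytokine on which pre-B cells depend, and all lines stayed in IL7 for a further 48 h after transduction. EV lines stayed in IL7 thereafter, and a sort on GFP is stated for them, whereas BCR-ABL1 lines were grown for 1 week in medium lacking the cytokine before RNA was taken. BCR-ABL1, the loss of IL7 and this sort therefore coincided in all lines, and their effects cannot be told apart. A line name gives the mouse by its digit (EV 2C came from mouse 2) and the line by its letter. The labels speak of triplicates from independent experiments, but all lines of a mouse share that animal's marrow.

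The family decides whether the outer mitochondrial membrane stays closed. The antiapoptotic proteins BCL2, BCL-XL (encoded by Bcl2l1) and MCL1 hold the pore-forming effectors BAX and BAK in check. The BH3-only proteins BIM (Bcl2l11), PUMA (Bbc3), NOXA (Pmaip1), BID and BAD respond to stress or loss of growth factors, and they bind the antiapoptotic proteins or activate the effectors. In B cell precursors IL7 is known as a survival signal that acts in part through this family.

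The total count per line ranged from 34791011 to 66011225. Levels are given as CPM, that is, counts divided by the total of the line and its TMM factor, so that lines can be compared. Genes with enough counts (15038 in all) were compared by edgeR's glmTreat, which asks whether a change exceeds 1.5-fold. A gene was called different at a Benjamini-Hochberg adjusted p under 0.05 over all 15038 genes. Log2 fold changes are BCR-ABL1 over EV, as estimated by the edgeR fit. The standard errors beside them come from the spread of log2 CPM between the 6 lines of each group, not from that fit. They describe the spread of the lines and are not errors of the fitted value. EV 2C stood apart from its sister lines. The chi-square statistic of its counts against EV 2A and EV 2B was 270 and 434 per gene, compared with 9.36 to 78.1 for the other pairs of lines from the same mouse and condition. Of the B lineage markers, all 10 were present in the lines, with a summed level of 2457 to 4204 CPM in EV lines and of 2583 to 3391 CPM with BCR-ABL1. One of them, Dntt, was called higher in BCR-ABL1 lines, at 31.6 to 179 CPM there and 0.101 to 18.5 CPM in EV lines. It was scarce in the EV lines of mouse 1 and in EV 2C, at 0.101 to 0.415 CPM, with a lowest count of 7. The summed markers of myeloid, T and NK, mast, erythroid and stromal cells stayed at or under 1.75 CPM in every line, and Hba-a1 was at 0 in all of them. In bulk RNA, fewer cells of a type and less RNA per cell cannot be told apart.

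The start sites of 3 members are shown first, because they carry letters known as binding motifs of factors named below. RefSeq windows of GRCm38.p6 (250 bases before to 50 after a start) were used for 9 members, 15 windows in all, with Pmaip1 left out of the search. They were searched on both strands for the FOXO motif GTAAACA, the STAT motif TTCNNNGAA, the 10-base p53 response element unit and the GC box GGGCGG. Only the 250 bases upstream are printed, 5′ to 3′ on the gene's strand, with 1 FOXO or p53 match each in capitals. The motifs were chosen with results of these data known.
Bcl2l11, chr2:128125788-128126037, plus strand, before the annotated start: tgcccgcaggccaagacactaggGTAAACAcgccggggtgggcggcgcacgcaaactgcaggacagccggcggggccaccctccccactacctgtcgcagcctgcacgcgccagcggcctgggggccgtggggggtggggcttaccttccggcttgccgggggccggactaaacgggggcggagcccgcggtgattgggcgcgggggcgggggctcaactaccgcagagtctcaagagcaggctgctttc
Bbc3, chr7:16310011-16310260, plus strand, within an intron, before an inner start: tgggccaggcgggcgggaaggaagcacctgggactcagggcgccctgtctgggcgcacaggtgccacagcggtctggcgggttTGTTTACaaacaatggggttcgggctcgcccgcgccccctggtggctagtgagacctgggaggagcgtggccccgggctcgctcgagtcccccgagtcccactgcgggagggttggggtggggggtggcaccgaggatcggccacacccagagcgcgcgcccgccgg
Bax, chr7:45466899-45467148, minus strand, before the annotated start: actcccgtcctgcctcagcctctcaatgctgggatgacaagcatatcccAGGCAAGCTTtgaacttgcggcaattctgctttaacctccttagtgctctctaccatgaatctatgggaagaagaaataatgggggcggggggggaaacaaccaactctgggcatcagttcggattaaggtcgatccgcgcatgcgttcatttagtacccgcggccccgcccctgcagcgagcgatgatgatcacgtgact
The capitals in the Bcl2l11 and Bbc3 windows mark the FOXO motif, which begins at base -227 and base -167 from the start and lies on the other strand in Bbc3. None of the other windows of the members held this motif, those at other starts of Bcl2l11 and Bbc3 included. It was present in 3.65% of 32851 windows of all genes. The capitals in the Bax window mark the p53 unit at base -201, a match found in 8.36% of all windows. No other window of the members held the p53 unit, those of Bbc3 included. The STAT motif, found in 8.3% of all windows, was not in any window of these members, and the GC box occurred in 10 of the 15 windows of the members and in 35.7% of all windows. The GC box also lies in each of the printed stretches, where it is left in lower case. The 3 windows shown were rich in GC, at 71.0%, 74.7% and 57.3% over the 300 bases, whereas the median of all windows was 52.7%. A match of letters is a description and does not show that a factor binds there.

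Of the 10 members, 3 were called higher in BCR-ABL1 lines, namely Bcl2l11, Bbc3 and Pmaip1, and 0 were called lower. Over all genes tested, 12.4% were called, 5.98% higher and 6.46% lower. At an unadjusted glmTreat p under 0.05 the members called lower were again 0, beside 1687 of all 15038 genes. With DESeq2 they were also 0, beside 651 genes. Among only 10 members, a count of 0 lower does not set them apart from all genes. The 3 called genes all encode BH3-only proteins. The median log2 fold change of the 10 members was 0.55, with 8 positive and 2 negative, and that of all genes was -0.02. The CPM of the EV and BCR-ABL1 lines did not overlap for 4 of the 10 members, the 3 called genes and Bax, compared with 25.6% of all genes tested.

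**Figure D1:**
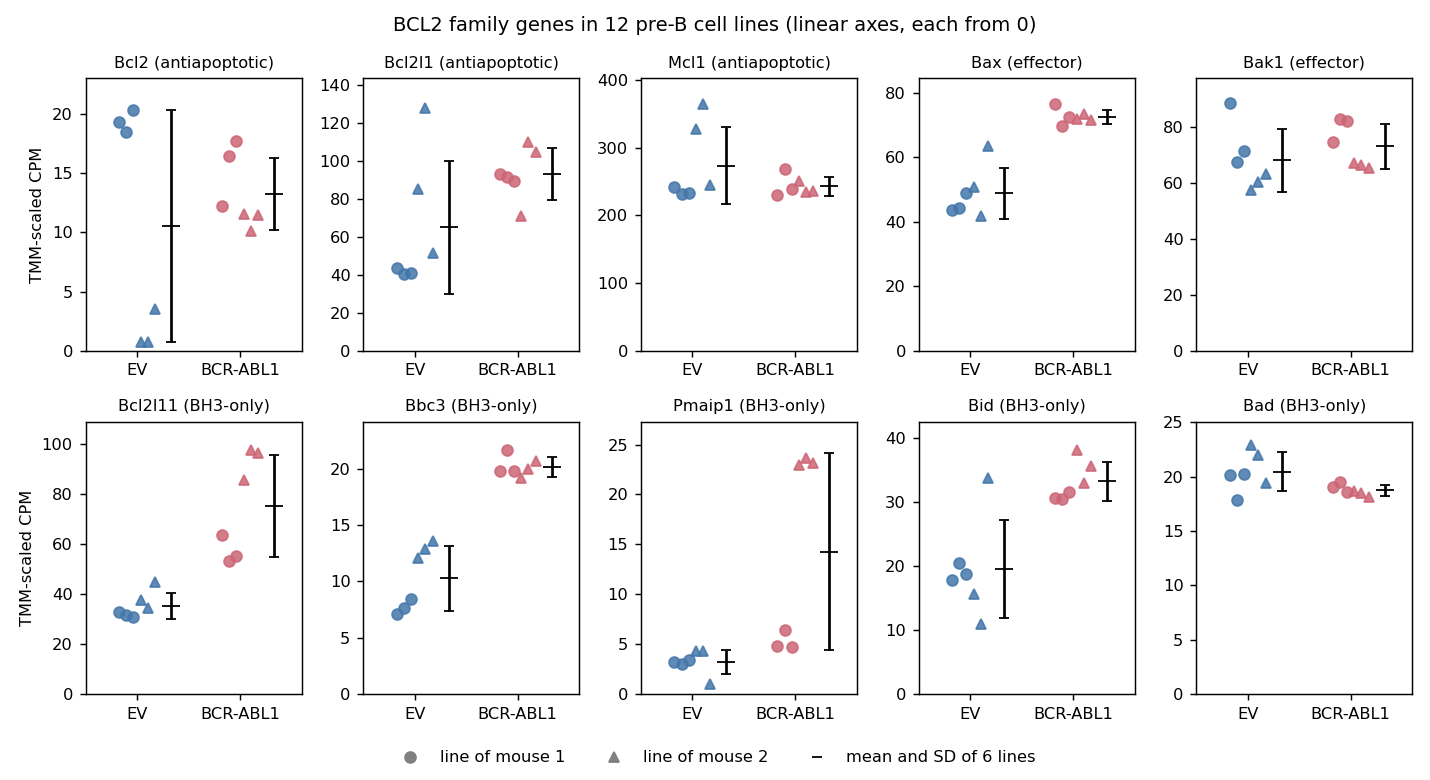
CPM of each of the 10 BCL2 family genes (vertical axes, linear and from 0) in 6 EV and 6 BCR-ABL1 lines (horizontal axis), with circles for lines of mouse 1, triangles for lines of mouse 2 and bars for mean and SD. The groups do not overlap for Bax, Bcl2l11, Bbc3 and Pmaip1, the 3 EV lines of mouse 2 lie far below those of mouse 1 for Bcl2, and the BCR-ABL1 lines of mouse 2 stand above all others for Pmaip1.

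Among the BH3-only genes, Bcl2l11 (chr2:128126038-128162547) encodes BIM, which binds all antiapoptotic members and is known to rise when growth factors are withdrawn. Its EV levels were 32.6, 31.4 and 30.7 CPM in the lines of mouse 1 and 37.5, 34.1 and 44.6 CPM in those of mouse 2. Its BCR-ABL1 levels were 63.6, 53.1 and 55.2 CPM in mouse 1 and 85.3, 97.4 and 96.1 CPM in mouse 2. Every BCR-ABL1 line thus exceeded every EV line, and the lines of mouse 2 were the highest within both groups. The change was 2.14-fold (log2 fold change 1.10, standard error 0.18, n = 6 lines per group, glmTreat adjusted p = 0.0145). Bcl2l11 was called in all 22 alternative fits, with adjusted p between 0.000397 and 0.0340. It was also called within the lines of mouse 1 (log2 fold change 0.87, glmTreat adjusted p = 0.00131) and of mouse 2 (1.27, glmTreat adjusted p = 0.0138).

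Bbc3 (chr7:16308393-16318205) encodes PUMA, a p53 target that is also known to be induced by FOXO factors. It was at 7.08, 7.67 and 8.40 CPM in EV lines of mouse 1 and at 12.0, 12.9 and 13.6 CPM in EV lines of mouse 2. All 6 BCR-ABL1 lines lay between 19.1 and 21.7 CPM, with a median of 19.9 CPM, so the mice differed in EV but hardly in BCR-ABL1 lines. The change was 1.97-fold (log2 fold change 0.97, standard error 0.17, n = 6 lines per group, glmTreat adjusted p = 0.0366). This call was near the threshold, since Bbc3 was called in 11 of 22 alternative fits. With 1 line left out it was lost in 8 of 12 fits, without EV 1A, 1B or 1C or BCR-ABL1 1A, 1B, 2A, 2B or 2C, at log2 fold changes of at least 0.90 and adjusted p of 0.0515 to 0.0760 by glmTreat. In mouse 1 alone the log2 fold change was 1.41 (glmTreat adjusted p = 2.25e-06) and in mouse 2 alone 0.65 (glmTreat adjusted p = 0.517).

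Pmaip1 (chr18:66458533-66465565) encodes NOXA, a p53 target that binds chiefly MCL1. Its EV levels were 3.2, 3.0 and 3.4 CPM in mouse 1 and 4.29, 4.29 and 0.956 CPM in mouse 2, the lowest value being that of EV 2C. Its BCR-ABL1 levels were 4.83, 6.37 and 4.70 CPM in mouse 1, just above the EV range, and 23.0, 23.6 and 23.1 CPM in mouse 2. The change over all lines was 4.48-fold (log2 fold change 2.16, standard error 0.58, n = 6 lines per group, glmTreat adjusted p = 0.0262), and most of it lay in the BCR-ABL1 lines of mouse 2. Within mouse 1 the log2 fold change was 0.74 (glmTreat adjusted p = 0.171) and within mouse 2 it was 2.90 (glmTreat adjusted p = 0.0350). The call was present in 15 of 22 alternative fits and was lost without EV 1B or BCR-ABL1 2A, 2B or 2C, at glmTreat adjusted p of 0.0521 to 0.0582. Without EV 2C it was kept, at 1.98 (glmTreat adjusted p = 0.0289).

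Bid (chr6:120891930-120916853) encodes a BH3-only protein that links death receptors to mitochondria. It ranged from 10.9 to 33.7 CPM in EV lines, with a median of 18.3 CPM, and from 30.4 to 38.0 CPM in BCR-ABL1 lines, with a median of 32.3 CPM. The overlap came from EV 2C alone, at 33.7 CPM, since the other 5 EV lines lay at or under 20.4 CPM. Over all lines Bid was not called (log2 fold change 0.76, standard error 0.22, glmTreat adjusted p = 0.327). Without EV 2C it was called (0.99, glmTreat adjusted p = 0.0132), so that 4 members were then higher, beside 8.79% of all genes. In the annotation 17.7% of the exon bases of Bid lie opposite exons of Bcl2l13, and the strand setting of the counting is not given in the sources used here. Bcl2l13 itself ranged from 50.5 to 60.1 CPM over all 12 lines.

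Bad (chr19:6941861-6951899) encodes a BH3-only protein that survival kinases such as AKT and PIM inactivate by phosphorylation. EV lines held 17.9 to 22.9 CPM and BCR-ABL1 lines 18.1 to 19.5 CPM, the latter being the narrowest BCR-ABL1 range among the BH3-only members. Its log2 fold change was -0.13 (standard error 0.05, glmTreat adjusted p = 1), and 20.5% of its exon bases lie opposite Gpr137.

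The effector Bax (chr7:45461697-45466898) had higher values in all BCR-ABL1 lines, but by less than the threshold asked for. Its EV levels were 43.8, 44.4, 49.0, 50.7, 41.9 and 63.4 CPM in lines 1A to 2C, the highest being that of EV 2C. The 6 BCR-ABL1 lines lay between 69.6 and 76.5 CPM, with a median of 72.1 CPM. The change was 1.48-fold (log2 fold change 0.57, standard error 0.09, n = 6 lines per group), which glmTreat did not call beyond 1.5-fold (adjusted p = 0.835). Against no change at all, edgeR's quasi-likelihood test gave Bax an adjusted p = 0.000471. That test called 5 of the 10 members higher, Bax and Bid beside the 3 above, where it called 22.5% of all genes higher, and 0 lower, where it called 25.9% lower. The second effector, Bak1 (chr17:27019810-27029009), had EV levels of 57.5 to 88.5 CPM and BCR-ABL1 levels of 65.3 to 82.9 CPM. Its groups overlapped over nearly the whole range (log2 fold change 0.10, standard error 0.11, glmTreat adjusted p = 1), and the lines of mouse 2 were lower than those of mouse 1 in both groups.

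The antiapoptotic genes showed no call in either direction. Mcl1 (chr3:95658788-95663176), which lymphocyte precursors are known to require, held 231 to 365 CPM in the EV group and 229 to 268 CPM with BCR-ABL1. Its highest values were those of EV 2A and EV 2B, 327 and 365 CPM, and the other 10 lines lay at or under 268 CPM. Its log2 fold change was -0.17 (standard error 0.12, glmTreat adjusted p = 1).

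Bcl2l1 (chr2:152780668-152831728) encodes BCL-XL, a known STAT5 target in BCR-ABL1 cells. It was at 43.9, 40.7 and 41.1 CPM in EV lines of mouse 1 and at 85.3, 128 and 51.6 CPM in EV lines of mouse 2. In BCR-ABL1 lines it was at 93.4, 91.8 and 89.4 CPM in mouse 1 and at 70.8, 110 and 105 CPM in mouse 2. The groups separated within mouse 1 and overlapped within mouse 2. Over all lines Bcl2l1 was not called (log2 fold change 0.52, standard error 0.29, glmTreat adjusted p = 0.898). In mouse 1 alone it was called (1.14, glmTreat adjusted p = 7.27e-07) and in mouse 2 alone it had a log2 fold change of 0.12 (glmTreat adjusted p = 1.00).

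Bcl2 (chr1:106538178-106714274), the founding member of the family, differed more between the EV lines of the mice than between the groups. Its EV levels were 19.3, 18.5 and 20.3 CPM in mouse 1 and 0.736, 0.715 and 3.52 CPM in mouse 2. Its lowest count in a line was 24, above the 3 counts taken as the floor. The BCR-ABL1 lines held 12.2, 16.4 and 17.7 CPM in mouse 1 and 11.6, 10.1 and 11.4 CPM in mouse 2. They were below the EV lines in mouse 1 and above them in mouse 2. Over all lines the fitted log2 fold change was 0.33 (glmTreat adjusted p = 1). With mouse as replicate block it was 1.16 (glmTreat adjusted p = 0.460). The standard error from log2 CPM was 0.95, and it does not belong to either fitted value.

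**Figure D2:**
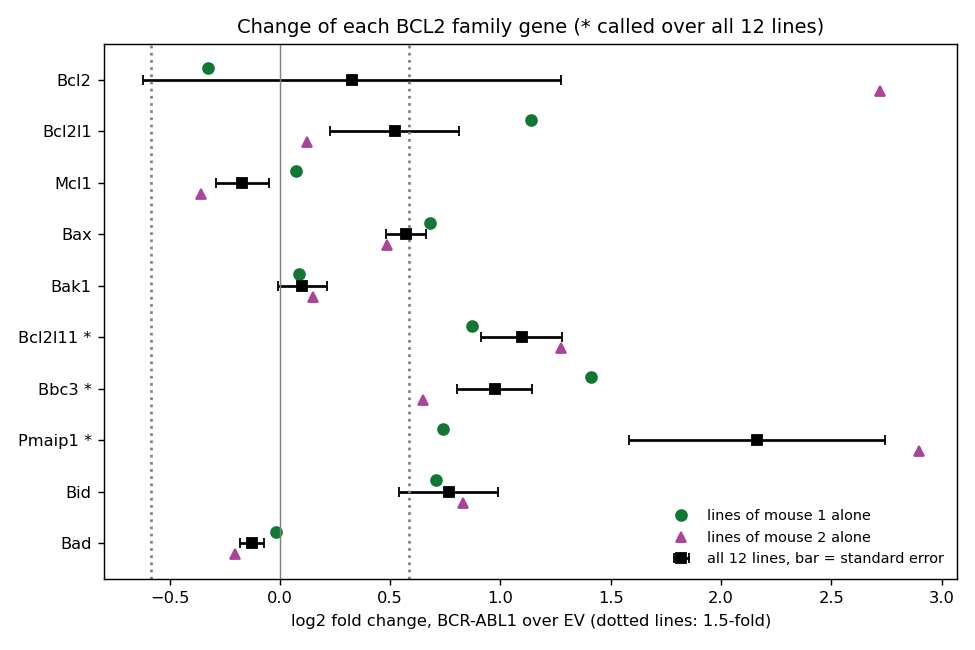
Log2 fold change of each member between BCR-ABL1 and EV lines (horizontal axis) over all 12 lines and in the lines of each mouse alone. Bars show the standard error from the spread of log2 CPM, and asterisks mark the 3 members called over all lines. Bcl2, Bcl2l1 and Pmaip1 show the widest gaps between the mice, whereas the estimates for Bcl2l11 stay between 0.87 and 1.27.

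Each mean was also tested alone, by an exact permutation test of log2 CPM over all 924 labelings of the 12 lines, two-sided and without adjustment for the 10 tests. Bcl2l11, Bax, Bbc3 and Pmaip1 reached 0.00216, the smallest p this test can give. Groups without overlap always reach it, and these were the 4 members without overlap, so it adds nothing to that. Of all genes tested, 25.6% had no overlap in CPM. The exact p was 0.0108 for Bid, 0.0498 for Bad and 0.0519 for Bcl2l1, and it was 0.199 for Bcl2, 0.335 for Mcl1 and 0.344 for Bak1. Since the mouse pairs the lines, the test was repeated with lines exchanged only within a mouse, over 400 labelings, a choice made after seeing the data. The 4 genes again reached the smallest p possible, 0.005, which their lack of overlap also fixes. The exact p was 0.01 for Bid, 0.035 for Bcl2l1 and 0.065 for Bad, so the last pair changed sides of 0.05. It was 0.1 for Bcl2, 0.12 for Bak1 and 0.27 for Mcl1.

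Whether the effect of BCR-ABL1 differed between the mice was asked by glmQLFTest of the mouse by condition interaction. It was called for 3 of the 10 members, and for 16.7% of all genes tested. Bcl2 had a difference of 3.03 on the log2 scale, mouse 2 minus mouse 1 (adjusted p = 0.00878). Pmaip1 had a difference of 2.15 (adjusted p = 0.0253) and Bbc3 one of -0.77 (adjusted p = 0.00304). In Bcl2 and Bbc3 the mice differed mainly in the EV lines, and in Pmaip1 mainly in the BCR-ABL1 lines. For Bcl2l11 the difference was 0.40 (adjusted p = 0.104) and for Bcl2l1 it was -1.02 (adjusted p = 0.0898). Without EV 2C, the interaction was called for 7 members, among them both of these, and for 36% of all genes. Of the members, 3 were called higher in the lines of mouse 1 alone, Bcl2l11, Bcl2l1 and Bbc3, beside 16.2% of all genes. In mouse 2 alone they were 2, Bcl2l11 and Pmaip1, beside 3.83% of all genes. With mouse as replicate block in the fit, Bcl2l11, Bbc3 and Pmaip1 were again the members called higher, and 7.47% of all genes were. Their adjusted p were 0.000751, 0.00877 and 0.0392 by glmTreat.

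Levels of different genes were compared as CPM per kilobase of exon. Mcl1 stood first in both groups, at 80.0 ± 16.8 in EV and 71.2 ± 4.14 in BCR-ABL1 lines (mean ± SD, n = 6 lines). The effectors followed, with Bax at 31.0 ± 5.0 and 46.0 ± 1.45 and Bak1 at 28.3 ± 4.64 and 30.3 ± 3.31 in EV and BCR-ABL1 lines. In EV lines Bax and Bak1 did not differ beyond their spread. Bcl2l1 came next, at 14.2 ± 7.66 in EV and 20.4 ± 2.98 in BCR-ABL1 lines.

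The BH3-only genes other than Pmaip1 formed the next group, and their order changed between the conditions. In EV lines Bad (7.99 ± 0.71) had the highest mean, followed by Bid (5.50 ± 2.17), Bbc3 (4.83 ± 1.35) and Bcl2l11 (4.38 ± 0.65). Neighbours in this order did not differ beyond their spread, and the range of Bid (3.06 to 9.50) enclosed that of Bad (6.98 to 8.97). In BCR-ABL1 lines Bbc3 (9.50 ± 0.42), Bcl2l11 (9.36 ± 2.53) and Bid (9.35 ± 0.85) had nearly equal means, and Bad (7.32 ± 0.19) had the lowest mean of the 4, within the range of Bcl2l11 (6.61 to 12.1). The order of the first 3 differed between the mice. Bcl2l11 was below Bbc3 and Bid in mouse 1, with means of 7.13, 9.61 and 8.69, and above both in mouse 2, with means of 11.6, 9.38 and 10.01. By their means, Pmaip1 (1.17 ± 0.45 in EV, 5.23 ± 3.6 in BCR-ABL1 lines) and Bcl2 (1.15 ± 1.07 and 1.44 ± 0.33) stood last in both groups. For Pmaip1 in BCR-ABL1 lines this place held in mouse 1 only, at 1.72 to 2.33. In mouse 2 it lay at 8.41 to 8.66, above every Bad value in BCR-ABL1 lines (7.08 to 7.62). In EV lines Bcl2 (2.02 to 2.22) was above Pmaip1 (1.10 to 1.24) in mouse 1, and in mouse 2 the ranges overlapped (0.0781 to 0.384 and 0.350 to 1.57). With the longest transcript as gene length, Bcl2l1 passed Bak1 and Bbc3 fell below Bad in BCR-ABL1 lines, and in EV lines Bcl2l11 passed Bbc3 and Pmaip1 fell below Bcl2.

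**Figure D3:**
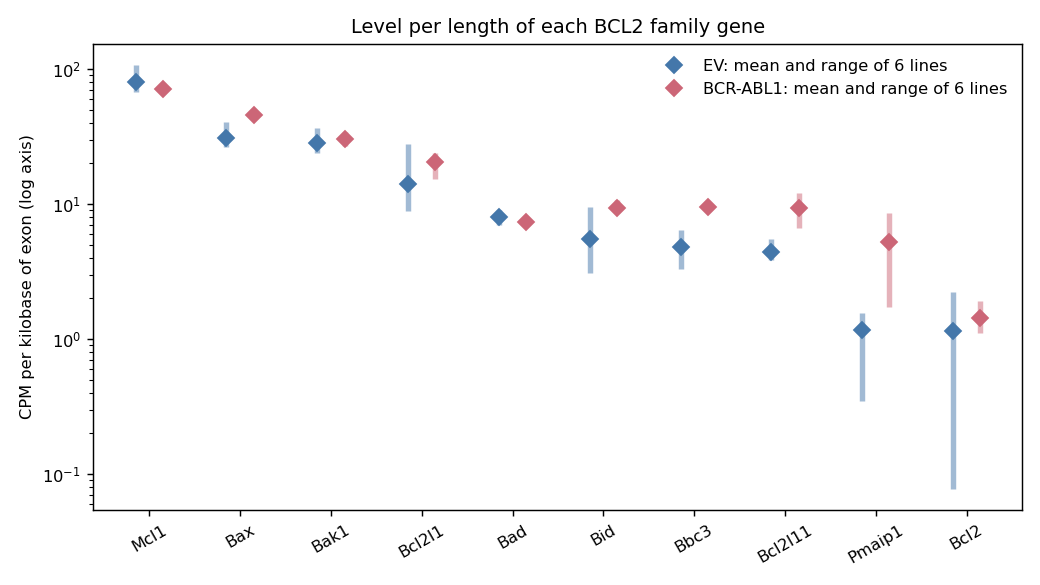
Level of each member in CPM per kilobase of exon (vertical axis, log scale) in EV and BCR-ABL1 lines, with diamonds for the mean and bars for the range of 6 lines. Mcl1 is the highest in both groups, and the EV range of Bcl2 spans from 0.0781 to 2.22.

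Sums over roles, again per kilobase, describe the same levels. The 5 BH3-only genes summed to 21.4 to 29.4 in EV and 34.0 to 47.3 in BCR-ABL1 lines. The 2 effectors summed to 51.6 to 66.4 and to 72.5 to 80.0. The 3 antiapoptotic genes summed to 78.5 to 135 and to 88.8 to 100, so the first pair of sums did not overlap between the groups, nor did the second, and the third did. Of the antiapoptotic sum, Mcl1 made up 79.2% to 86.1% in EV and 73.2% to 81.5% in BCR-ABL1 lines. Bcl2l1 made up 11.3% to 20.7% and 17.1% to 25.6%. Bcl2 made up 0.0579% to 2.80% and 1.17% to 2.11%. These sums follow from the values of the members above and were not tested.

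For each called member, the genes with the most similar profile were sought among the other 15037 tested genes, by the root mean square difference of centred log2 CPM over the 12 lines. For Bcl2l11 they were Wdsub1 (0.140) and Col26a1 (0.145), and for Bbc3 they were Tmsb4x (0.105) and 1190002N15Rik (0.120). For Pmaip1 the nearest were Qsox1 (0.424) and Ispd (0.470). The distances are not scaled to the spread of each gene, which was wider for Pmaip1 than for Bcl2l11 and Bbc3. They therefore do not show which member was followed more closely.

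Other genes of the BCL2 family were listed beside the members. Of 15, 6 had enough counts to be tested and 1 was called higher, Bnip3, which encodes a mitochondrial protein known from hypoxia and mitophagy. Its EV levels were 15.04 to 23.7 CPM and its BCR-ABL1 levels 47.3 to 111 CPM (log2 fold change 1.92, standard error 0.24, glmTreat adjusted p = 0.000441). The median of the 6 was -0.18, and the 9 that were not tested stayed at or under 1.76 CPM in every line. The highest of these was Bok, named after its values were seen, at 0 to 0.215 CPM in EV lines. In BCR-ABL1 lines Bok was at 0.119 to 0.313 CPM in mouse 1 and at 1.43 to 1.76 CPM in mouse 2. Of this list, 3 were called higher in mouse 1 alone, beside 16.2% of all genes, and 2 in mouse 2 alone, beside 3.83%. Bmf, a BH3-only gene, was at 9.32, 6.93 and 8.25 CPM in EV lines of mouse 1 and at 73.7, 113 and 17.6 CPM in those of mouse 2. All BCR-ABL1 lines held 14.5 to 20.02 CPM of Bmf, between the EV lines of mouse 1 and EV 2A and EV 2B. Its effect differed between the mice by -3.12 on the log2 scale (glmQLFTest interaction, adjusted p = 0.00873), and that of Bcl2l2, the gene of antiapoptotic BCL-W, by -0.92 (adjusted p = 0.00661).

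Downstream of the mitochondria, all 18 caspase and apoptosome genes were tested, with a median log2 fold change of 0.08. One was called lower, Casp9, the initiator caspase of the apoptosome, with EV levels of 14.9 to 23.0 CPM and BCR-ABL1 levels of 7.77 to 11.5 CPM. It changed by -1.03 on the log2 scale (standard error 0.13, glmTreat adjusted p = 0.00613). Casp9 was called in 21 of 22 alternative fits and was lost in mouse 2 alone (glmTreat adjusted p = 0.180). The share of this list called lower was 5.56%, beside 6.46% of all genes. Of 9 death receptor genes, 7 were tested and glmTreat called 0, with a median of -0.14. At an unadjusted p under 0.05, 1 was higher and 0 were lower, beside 1470 and 1687 of all 15038 genes. DESeq2 called 0 of them, beside 795 genes higher and 651 lower. By the test against no change 2 of these 7 were higher and 3 lower, and of the 18 caspase and apoptosome genes 6 were higher and 3 lower, beside the 22.5% and 25.9% of all genes.

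Upstream of the family, 15 transcription factors known to act on its genes had a median of -0.19, with 1 called higher and 1 lower. Foxo1, Foxo3, Trp53, Stat5a and Stat5b were not called, at log2 fold changes of 0.10, -0.22, -0.19, 0.01 and 0.07. They are named after their values were seen, because of the motifs above, and RNA levels do not show the activity of these factors. Bcl6, a repressor that is known to restrain p53 in pre-B cells, fell from 11.7 to 54.0 CPM in the EV group down to 1.48 to 2.97 CPM with BCR-ABL1, a log2 fold change of -4.08 (standard error 0.37, glmTreat adjusted p = 1.44e-05). Nfil3, a factor induced by cytokines, had EV levels of 0.417 to 0.793 CPM and BCR-ABL1 levels of 1.00 to 1.79 CPM (log2 fold change 1.35, standard error 0.20, glmTreat adjusted p = 0.00881). Nfil3 was called in 20 of 22 alternative fits. It was lost in mouse 2 alone (glmTreat adjusted p = 0.0861) and with a filter of at least 1 CPM in 6 lines. Of 16 regulators of BCL2 family proteins, 1 was called, with a median of 0.06 over the list. It was Pim1, a kinase that phosphorylates BAD, which rose from 47.3 to 177 CPM in EV lines up to 812 to 870 CPM with BCR-ABL1 (log2 fold change 3.09, standard error 0.36, glmTreat adjusted p = 0.000205).

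Besides Bbc3 and Pmaip1, 12 other p53 target genes were listed, of which 11 were tested, 5 were called higher and 1 was called lower. Their median log2 fold change was 0.62. Over the 22 alternative fits 4 to 7 were called higher and 0 to 2 lower, with 0 lower in 14 of them, DESeq2 among these. Phlda3, an inhibitor of AKT, rose by 2.91 on the log2 scale (standard error 0.16, glmTreat adjusted p = 1.84e-06), from 2.22 to 3.35 CPM in EV up to 15.5 to 25.2 CPM in BCR-ABL1 lines. Zmat3, an RNA-binding protein, rose by 2.32 (standard error 0.16, glmTreat adjusted p = 6.53e-06). Aen, a nuclease, rose by 1.36 (standard error 0.30, glmTreat adjusted p = 0.0284), and its highest EV value, 120 CPM in EV 2C, was close to its lowest BCR-ABL1 value of 126 CPM. Aen was called in 13 of the 22 alternatives and was lost without EV 1A, 1B, 1C or 2B or BCR-ABL1 1A or 2A, and its adjusted p was 0.394 by glmTreat in mouse 2 alone. Eda2r, a receptor of the TNF receptor family, had EV levels of 0.0144 to 0.318 CPM and BCR-ABL1 levels of 4.09 to 8.99 CPM (glmTreat adjusted p = 7.63e-05). Its fold change is not given, because the EV lines of mouse 1 held 1 to 3 counts. Ccng1, the remaining gene called higher, and Trp53inp1, the gene called lower, are named after their values were seen, at 1.24 and -1.23 (glmTreat adjusted p = 0.000165 and 0.0431). Trp53inp1 was called in 7 of the 22 alternatives and was lost without any 1 line but EV 2C or BCR-ABL1 1B, and its highest adjusted p over all alternatives was 0.191. Phlda3, Zmat3, Eda2r and Ccng1 were called in all 22. Cdkn1a and Mdm2, both well-known targets, are named in the same way, and they were not called, at 0.52 (glmTreat adjusted p = 0.959) and -0.08 (glmTreat adjusted p = 1). The list holds genes that an earlier analysis of these data had shown, so its count is no independent evidence of its direction.

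**Figure D4:**
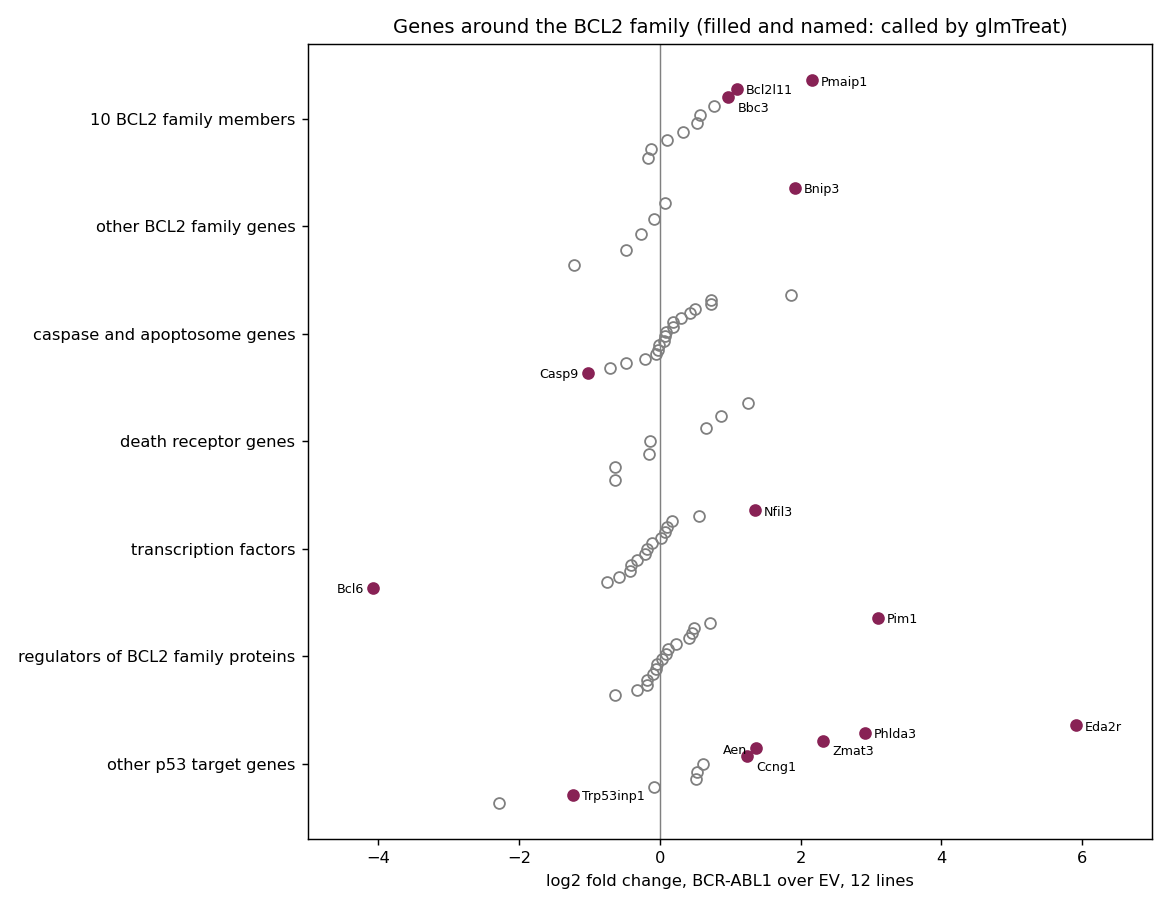
Log2 fold change between BCR-ABL1 and EV lines (horizontal axis) of the tested members and of the tested genes of 6 related lists (rows), with filled and named points for genes called by glmTreat and open points for the others. Of the 10 members 3 are called higher, and of the other p53 target genes 5 are called higher and 1 lower. The point of Eda2r rests on few counts in EV lines.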

How the data were processed

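Strand-specific libraries of total RNA from 12 pre-B cell lines were sequenced. The submitters' processing notes name Trimmomatic 0.36, TopHat2 2.1.1, featureCounts 1.5.3 and GRCm38. The authors deposited whole-number counts per gene for each line, without normalization. The strand setting of the counting is not given in the sources used here. The 10 members, the lists, the motifs and the tests were chosen with earlier results of these data known.

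Symbols, positions and exon lengths were taken from GENCODE M21, which held 51633 of 51826 identifiers, and promoter sequences from RefSeq (GRCm38.p6). Counts were analysed in R 4.3.3 with edgeR 4.0.16 (filterByExpr, TMM, glmQLFit with robust dispersion, glmTreat against 1.5-fold), limma 3.58.1 and DESeq2 1.42.0. The fold and the threshold of 0.05 follow the study. Log2 CPM used a prior count of 2, and 3 counts in a line (0.0433 to 0.0920 CPM) were taken as the floor, which covers counting error only. Plots were drawn with matplotlib 3.10.9. The fits were tested on simulated counts. Named were all members, up to 4 called genes of each other list by size of change, other BCL2 family genes with a call or a called interaction, and for each called member the 2 genes with the nearest profile.

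Lines of both groups share the numbers 1A to 2C, whose digit is the mouse by the labels. Deviations from the group means correlated at 0.0853 to 0.240 where EV and BCR-ABL1 lines came from 1 mouse, and from -0.203 to -0.0636 where they came from different mice. After removal of mouse means, lines with the same number correlated between -0.109 and 0.0856, so the mouse pairs the lines and the letter does not. No 2 lines agreed within sampling noise. All lines come from 2 mice, and p-values measure the spread between lines, which may be partly technical. The alternatives were DESeq2's size factors (RLE), no filter, CPM of at least 1 in 6 lines, the likelihood ratio fit, DESeq2, the test against no change, mouse or line number as replicate block, each mouse alone and each line left out. An exact test within mice was added after seeing the data.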

Additional observations from a re-analysis of the deposited data

Results flagged for a closer look

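The effect of BCR-ABL1 differed between the mice for 3 members by the test of the interaction, mouse 2 minus mouse 1 on the log2 scale: 3.03 for Bcl2, 2.15 for Pmaip1 and -0.767 for Bbc3. Among the genes of the related lists that are named above, the same test marked Bmf at -3.12, Bcl2l2 at -0.918, Pim1 at -1.58 and Eda2r at -3.12, the last resting on 1 to 3 counts in each EV line of mouse 1.

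In Bcl2, EV lines of mouse 2 averaged 1.66 CPM and those of mouse 1 19.4 CPM, whereas the BCR-ABL1 lines averaged 11.03 and 15.4 CPM. In Pim1, EV lines of mouse 2 lay at 108 to 177 CPM and those of mouse 1 at 47.3 to 49.6 CPM, whereas all BCR-ABL1 lines exceeded 811 CPM. In Bmf the mean of the EV lines was 67.9 CPM in mouse 2 and 8.16 CPM in mouse 1. What sets the EV lines of the mice apart was not tested.

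Single EV lines lay far from the other 5 in 4 genes, Eda2r again among them, by Dixon's criterion. Chance alone meets it in about 5% of such groups, and 42 groups of lines were checked over 21 genes. Bcl6 was at 11.7 CPM in EV 2C, with the nearest line at 39.8 CPM. Nfil3 was at 0.793 CPM in EV 2C, with the nearest line at 0.553 CPM, and Aen was at 120 CPM in EV 2C, with the nearest line at 58.2 CPM. Eda2r was at 0.318 CPM in EV 2B, with the nearest line at 0.123 CPM. No member met this criterion in either group, although EV 2C held the lowest Pmaip1 and the highest Bid, Bax, Bbc3 and Bcl2l11 values among the EV lines.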

How the results depend on the processing

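With a CPM filter of at least 1 in 6 lines, 598 genes were higher in place of 899. Against no change, 3386 genes were higher and 3901 lower in place of 971, and 5 members and 24 genes of the 6 related lists were higher, with 15 lower, in place of 3, 8 and 3. In mouse 1 alone, 2500 genes were higher and 1878 lower, and of the 6 lists 14 were higher and 5 lower. In mouse 2 alone, 590 genes were higher and 387 lower, and of the 6 lists 1 was lower. With mouse as replicate block 1123 genes and the same 3 members were higher, and with line number as replicate block Bcl2l11 and Bbc3 were. With each line left out in turn, members called higher ranged from 1 to 4, genes of the 6 lists called lower from 2 to 5, members with a called interaction from 2 to 7, and genes with a called interaction from 1882 to 5514, with the highest value of each without EV 2C. Bcl2l11 alone was called without EV 1B and without BCR-ABL1 2A, 2B or 2C.

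The direction turned in mouse 1 alone for Bcl2 (-0.32), Mcl1 (0.073), Bcl2l2 (0.22) and Bmf (1.04, glmTreat adjusted p = 0.00441), and the interaction turned for Bak1 without EV 1A and for Bid without EV 2A (-0.033) or EV 2B, with ranges over lines left out of -0.054 to 0.141 for Bak1 and -0.181 to 0.739 for Bid. The cause was not tested. Bcl2l11 was called in all 22 alternatives, Pmaip1 in 15 and Bbc3 in 11, and DESeq2 called Bcl2l11 and Pmaip1. No member was called lower in any of them, and the median of all genes was -0.02 with TMM and -0.0016 with RLE size factors. All lines derive from 2 mice, IL7 and the GFP sort varied with BCR-ABL1, and RNA levels do not show the proteins, whose binding sets the activity of this family. The lowest member count, 24, limits the precision of Bcl2 in EV 2A.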
